A study of Drosophila melanogaster with 4 samples.

Results

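Assembled heterochromatin is the repeat-rich part of the Drosophila genome that could still be placed on a map. Here it comprises 3 groups of γH2AvD regions in the dm3 build. They are regions on chromosome 4, regions on the Het scaffolds (XHet, YHet and those of the left and right arms, 2LHet, 3LHet, 2RHet and 3RHet), and pericentric regions, whose midpoint lies in the centromere-proximal 1 Mb of arms 2L, 3L, 3R or X. Membership was decided by position alone. Of the 1929 regions in the 3 deposited lists, 249 met this rule, 160 in the list from cells depleted of the linker histone dH1, 78 in the list from wild-type (WT) cells and 11 in the list that set one ChIP directly against the other.

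H2Av is the Drosophila histone variant that serves both as H2A.Z and as H2A.X, and its phosphorylated form, γH2AvD, marks chromatin around DNA breaks. Linker histone H1 binds the nucleosome where DNA enters and leaves, and in flies it is known to be needed for the compaction of heterochromatin and for the silencing of transposons there. Heterochromatin consists largely of transposon remnants and satellite repeats and carries the HP1a protein. Chromosome 4 is unusual in that most of its genes are active although they lie among such repeats.

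The libraries came from S2 cells, an established and aneuploid line of embryonic origin. For dH1 RNAi, chromatin enriched for γH2AvD (ChIP) and unenriched chromatin (input) were sequenced from cells to which 100 µg of double-stranded RNA against dH1 was given on days 1, 4 and 7 of 8 days in culture. For WT the same 2 libraries were made from S2 cells for which no control double-stranded RNA is recorded, so the effect of double-stranded RNA and that of losing dH1 cannot be told apart. The antibody was a polyclonal rabbit antibody. Each condition had 1 ChIP and 1 input library, so the values carry no error between replicates and the conditions could not be tested against each other. The level of dH1 in these cells was not analysed here.

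The measurements are read counts given for each called region, deposited as whole numbers and not scaled by depth here. Which part of a region a count covers is not stated. The lists hold no library totals, so depth is unknown, and ratios of ChIP to input reads were ranked only within a list. In assembled heterochromatin a region carried 76 to 833 ChIP reads and 22 to 1004 input reads in the dH1 RNAi list, and 129 to 722 ChIP reads and 33 to 551 input reads in the WT list. Intervals in the text are exact 95% intervals. Only counting error is covered by them: reads copied by PCR and lacking molecular identifiers are not independent molecules. Cells were pooled in each library, so more cells with the mark and more of the mark per cell cannot be told apart. Genes are not named, because the gene column of the lists is empty.

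After dH1 RNAi the called regions of assembled heterochromatin fell on either side of a gap in their input reads. No region had between 149 and 214 input reads: 88 regions lay at or below 149 and 72 at or above 214. The remaining 1403 regions of the dH1 RNAi list had no such gap, with 200 and 201 input reads on either side of the limit of 200 used here. They are far more numerous and hold other kinds of sequence, so the gap is not shown to be particular to the members. The 72 regions of high input made up 45.0% of the members, against 37.9% of the whole dH1 RNAi list above 200 input reads. They had fewer ChIP than input reads without exception, with a median ratio of 0.564 and a range of 0.488 to 0.859. So did all 593 regions of the whole dH1 RNAi list above 200 input reads, with a median ratio of 0.572. The 88 regions of low input had a median ratio of 1.55 and a range of 0.819 to 3.86. Fewer ChIP than input reads were found at 16 of these 88, against 338 of the 970 regions of the whole list at or below 200 input reads. The count was 88 of all 160 members, against 59.6% of the whole list. The WT list held 1 region of assembled heterochromatin above 200 input reads among 78, against 2.36% of the whole WT list. None of the 78 had fewer ChIP than input reads, and neither did any of the 297 regions of that list. The part of the input level in the calling of these regions was not tested.

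**Figure D1:**
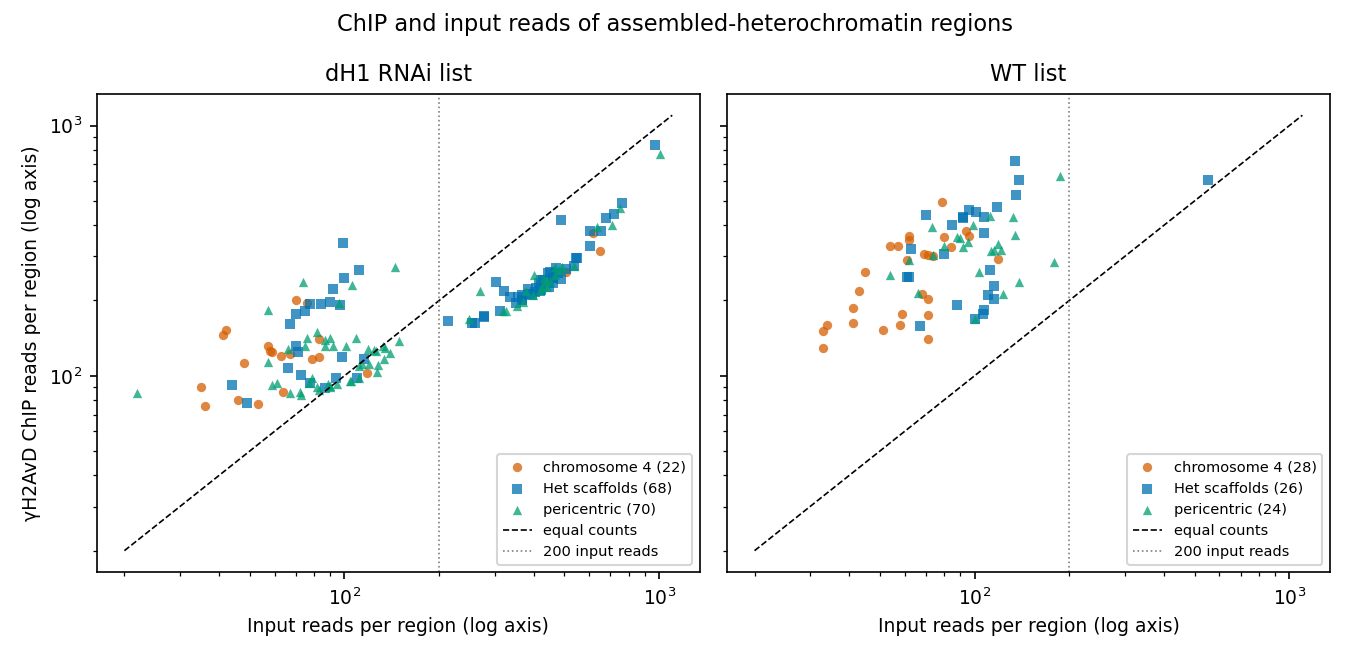
γH2AvD ChIP reads against input reads of each called region of assembled heterochromatin, on log axes, for the dH1 RNAi list (160 regions) and the WT list (78 regions). The dashed line marks equal counts and the dotted line 200 input reads. The dH1 RNAi regions form a cloud at low input and a narrow band below the line of equal counts, whereas 1 WT region lies to the right of the dotted line.

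The 3 groups held high-input and low-input regions in different proportions. On chromosome 4, 3 of 22 dH1 RNAi regions were of high input and 19 of low input. On the Het scaffolds 45 of 68 were of high input, and in the pericentric sequence 24 of 70. The pericentric arms differed among themselves: none of 30 regions on 2L was of high input, against 5 of 13 on 3R, 7 of 11 on 3L and 12 of 16 on X. Among the scaffolds 13 of 16 regions on 3RHet, 19 of 26 on 2RHet, 9 of 19 on 3LHet and 2 of 5 on 2LHet were of high input, as were the single regions of XHet and YHet. Those single regions, at 35701 to 36750 of XHet with 173 ChIP reads over 277 input reads and at 72451 to 76500 of YHet with 379 and 654, had no WT region on the same scaffold to be set against.

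Density followed the groups in another order. Chromosome 4 held 16.3 regions per Mb after dH1 RNAi and 20.7 in WT cells. The pericentric sequence held 17.5 per Mb after dH1 RNAi and 6.0 in WT cells, and the Het scaffolds 7.33 after dH1 RNAi and 2.80 in WT cells. Arm sequence outside the proximal 1 Mb held 8.86 per Mb after dH1 RNAi and 1.71 in WT cells. Among the 4 proximal megabases that of 2L held the most regions, with 30 regions after dH1 RNAi and 14 in WT cells. The X proximal megabase held 16 regions after dH1 RNAi and 1 in WT cells. Assembled heterochromatin thus made up 10.2% (8.78 to 11.8) of the dH1 RNAi list and 26.3% (21.3 to 31.7) of the WT list. These densities are counts of calls in lists of different length, and no test of the difference was possible.

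**Figure D2:**
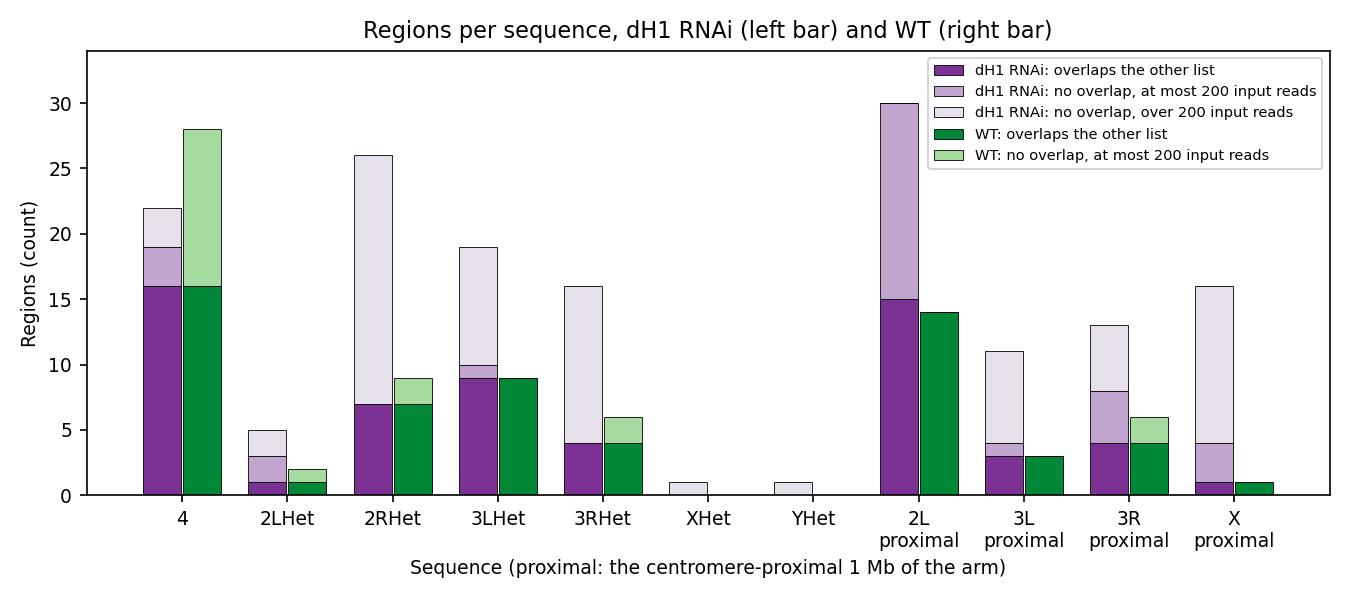
Number of called regions on chromosome 4, each Het scaffold and the proximal 1 Mb of 4 arms, with dH1 RNAi as the left bar and WT as the right bar. Dark shading marks regions that overlap the other list, and the lighter shades mark those that do not, split at 200 input reads. The pale dH1 RNAi segments are tallest on 2RHet (19 regions) and absent from 2L.

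Within each list, members of assembled heterochromatin were frequent among the regions with the highest ratio of ChIP to input reads. They held 50 of the 157 regions (31.8%) in the highest 10% of the dH1 RNAi list, of which they made up 10.2%, and 20 of the 30 (66.7%) in the highest 10.1% of the WT list, of which they made up 26.3%. Chromosome 4 alone placed 17 of its 22 dH1 RNAi regions and 10 of its 28 WT regions there. The Het scaffolds placed 16 of 68 dH1 RNAi regions and 7 of 26 WT regions there, and the pericentric sequence 17 of 70 and 3 of 24. The median member on chromosome 4 stood at percentile 95.7 of the dH1 RNAi list and at percentile 84.8 of the WT list. On the Het scaffolds the median member stood at percentile 27.8 of the dH1 RNAi list and 77.5 of the WT list, and in the pericentric sequence at 57.4 and 67.5. The caller's lowest false discovery rate (FDR), 0.001, was given to 17 members among 160 after dH1 RNAi, against 1.79% of the whole list, and to 7 among 78 in WT cells, against 3.37%. All 17 and all 7 overlapped a region of the other list, as did every other region with this FDR in either list, 28 and 10 in all.

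On chromosome 4 dH1 RNAi regions started at a median spacing of 22.3 kb, with a longest gap of 211 kb between starts, and WT regions at a median of 26.0 kb with a longest gap of 160 kb. The highest dH1 RNAi ratio of the chromosome was at 63851 to 65000, with 152 ChIP reads over 42 input reads and a ratio of 3.62 (2.56 to 5.22). The overlapping WT region had 350 ChIP reads over 62 input reads, a ratio of 5.65. The second dH1 RNAi region by ratio, at 887151 to 888250, had 146 ChIP reads over 41 input reads and a ratio of 3.56 (2.50 to 5.17), and its WT partner had 329 and 54 and a ratio of 6.09 (4.56 to 8.28). At 379901 to 380950 the dH1 RNAi region had 120 ChIP reads over 63 input reads, a ratio of 1.90, whereas its WT partner had 361 over 62, a ratio of 5.82 (4.44 to 7.75), the third highest of the chromosome in the WT list.

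A short stretch of chromosome 4 broke this pattern. Between 341201 and 348250, 3 neighbouring dH1 RNAi regions had 259, 316 and 372 ChIP reads over 506, 648 and 617 input reads, with ratios of 0.512, 0.488 and 0.603. No other region of the chromosome exceeded 118 input reads after dH1 RNAi. The nearest WT regions, at 328051 to 329200 and 334051 to 336050, had 74 and 57 input reads, and both were shared. The 3 remaining unshared dH1 RNAi regions of the chromosome were of low input. One at 65101 to 65900, with 77 ChIP reads over 53 input reads, lay 50 bp from a WT region, and the other two lay near the end of the assembled chromosome, between 1286151 and 1290700, with 103 and 119 ChIP reads.

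On the Het scaffolds the highest dH1 RNAi ratio was at 1396001 to 1397500 of 3LHet, with 339 ChIP reads over 99 input reads and a ratio of 3.42 (2.73 to 4.33). Its WT partner had 606 ChIP reads over 138 input reads, a ratio of 4.39. At 197351 to 199450 of 2RHet the dH1 RNAi library had 132 ChIP reads over 70 input reads, and the WT library 439 over 70, whose ratio of 6.27 (4.86 to 8.19) was the highest WT ratio of the scaffolds. 3LHet stood out among the scaffolds in that all 9 of its WT regions were shared and 8 of them were in the highest 25% of the WT list by ratio. 3RHet differed in ratio: its 6 WT regions had a median ratio of 1.84, 1 of them was in that highest 25%, and 4 were shared. It also held the only shared dH1 RNAi member above 200 input reads, 7300 bp at 1517701 to 1525000 with 379 ChIP reads over 603 input reads. Inside it lay the WT member with the lowest ratio, 1.10 (0.982 to 1.24) at 1523901 to 1524650, where 608 ChIP reads stood over 551 input reads.

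In the pericentric sequence the highest dH1 RNAi ratio was at 21500951 to 21501850 of X, with 85 ChIP reads over 22 input reads and a ratio of 3.86 (2.39 to 6.49). At 24020901 to 24022100 of 3L it was 3.23 (2.39 to 4.43) and at 57501 to 59300 of 3R it was 3.22 (2.47 to 4.23). The partner regions in WT cells had ratios of 4.69 on X, 5.38 on 3L and 4.03 on 3R, and those on 3L and X were the highest of the pericentric sequence in the WT list. After dH1 RNAi the lowest pericentric ratio was 0.512 (0.441 to 0.594) at 832451 to 833250 of 3R, with 274 ChIP reads over 535 input reads. In WT cells it was 1.59 (1.31 to 1.92) at 22470301 to 22472200 of 2L, with 284 over 179. No pericentric region of high input overlapped a WT region, and the nearest of them lay 21.0 kb from one.

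The single regions nearest the limit of the proximal 1 Mb on either side had like values on 2L and 3L, though most lay far from it. On 2L the nearest dH1 RNAi region inside, 100 kb away, had a ratio of 0.819, and that outside, 112 kb away, 0.828. The WT regions had 4.07 at 110 kb inside and 3.75 at 254 kb outside. On 3L, at 164 kb inside and 212 kb outside in both lists, the dH1 RNAi ratios were 1.75 and 1.74, and the WT ratios 3.96 and 3.28. On 3R the dH1 RNAi ratios were 0.512 at 167 kb inside and 1.13 at 44.85 kb outside. The WT ratios there were 3.24 at 361 kb inside and 3.53 at 49.2 kb outside. On X a dH1 RNAi region of 248 ChIP reads over 482 input reads lay 0.677 kb outside the limit, and the first one inside, 55.2 kb away, had 98 and 79. The WT ratios on X were 4.69 inside and 2.47 outside, where the nearest WT region lay 1883 kb from the limit.

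Runs were taken as neighbours under 10 kb apart. After dH1 RNAi 94 of 160 regions belonged to 32 runs of at least 2, against 53.1% of the whole list, and in WT cells 29 of 78 belonged to 13, against 23.2% of the whole list. Runs were thus common throughout the dH1 RNAi list. Of the 32 dH1 RNAi runs, 14 consisted of high-input regions alone, 16 of low-input regions alone and 2 held both kinds. The longest low-input runs were on 2L. The run from 22428951 to 22443950 held 6 regions with 111 to 272 ChIP and 120 to 149 input reads, and that from 22111051 to 22140600 held 6 with 90 to 142 ChIP and 87 to 127 input reads. In the first of them the WT list held 2 separate regions, with 629 and 237 ChIP reads. The longest high-input run, from 853801 to 860700 of 2RHet, held 5 regions with 217 to 275 ChIP and 402 to 535 input reads. High-input runs of 3 or 4 regions were found on 2RHet from 362551 to 368850 and from 1464901 to 1468550, on 3L from 23818251 to 23823750, on 3R from 828201 to 833250, on 3RHet from 60151 to 69850, and on X from 21564151 to 21570650 and from 22173401 to 22176650. Within these 8 high-input runs of at least 3 regions the ratios spanned from as little as 0.532 to 0.548, on 3L, to as much as 0.538 to 0.634, on X from 21564151, inside the 0.488 to 0.859 of all high-input members. The shares and their intervals count each region of a run separately. If neighbours are not independent, those intervals are too narrow.

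Of the dH1 RNAi members 60 of 160 overlapped a WT region by at least 1 bp (37.5%, 29.98 to 45.5), against 13.7% of the whole dH1 RNAi list. The share was 16 of 22 on chromosome 4, 21 of 68 on the Het scaffolds and 23 of 70 in the pericentric sequence. It followed the input level: 59 of the 88 low-input members were shared (21.5% of the whole list at or below 200 input reads), and 1 of the 72 high-input members (0.843% of the whole list above 200). Among low-input members alone the shares were 16 of 19 on chromosome 4, 20 of 23 on the Het scaffolds and 23 of 46 in the pericentric sequence. In the other direction 59 of the 78 WT members overlapped a dH1 RNAi region (75.6%, 64.6 to 84.7), which is close to the 72.4% of the whole WT list. By group this was 16 of 28 on chromosome 4 (57.1%, 37.2 to 75.5), 21 of 26 on the Het scaffolds (80.8%, 60.7 to 93.4) and 22 of 24 in the pericentric sequence (91.7%, 73.0 to 99.0).

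Low-input dH1 RNAi regions without a WT counterpart numbered 29 in assembled heterochromatin, 15 of them on 2L. They had 77 to 142 ChIP reads, 53 to 140 input reads and ratios of 0.819 to 1.56. Of these, 19 lay under 10 kb from a WT region, against 15.2% of such regions in the whole list. On 2L it was 13 of 15, as at 22436151 to 22441600, where 4 unshared regions stood between 2 shared ones. WT regions were denser in assembled heterochromatin (5.33 per Mb) than in the arm sequence outside the proximal 1 Mb (1.71 per Mb), and the part of that density in the short distances was not tested. The 71 unshared high-input regions lay farther away, at a median of 178 kb for those with a WT region on the same sequence, and 7 of them lay under 10 kb away, against 1.7% of such regions in the whole list.

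The WT regions that had no dH1 RNAi counterpart were those with few ChIP reads. On chromosome 4 the 12 of them had 129 to 219 ChIP reads, and the 16 shared regions had 202 to 497, so that the groups overlapped narrowly. Their ratios overlapped broadly, with 1.97 to 5.09 at the 12 and 2.47 to 6.29 at the 16. The unshared regions with the most WT ChIP reads, at 808601 to 809700, 717001 to 718100 and 1144001 to 1145100, had 219, 212 and 187 ChIP reads and ratios of 5.09 (3.66 to 7.24), 3.12 (2.36 to 4.16) and 4.56 (3.24 to 6.56). On the Het scaffolds the 5 unshared regions had 158 to 202 ChIP reads, against 168 to 722 at the 21 shared ones. In the pericentric sequence both unshared regions were on 3R, with 214 and 169 ChIP reads. Few ChIP reads at unshared WT regions were a feature of the whole WT list, with a median of 170.5 at unshared and 291 at shared regions, against 175 and 331 in assembled heterochromatin. Of the 19 unshared WT members 4 lay at most 1 kb from a dH1 RNAi region, the closest at 150 bp, against 8.54% of unshared regions in the whole WT list. The fewest ChIP reads of any dH1 RNAi member was 76, and whether unlisted sites carry the mark below the level that the caller listed was not tested.

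**Figure D3:**
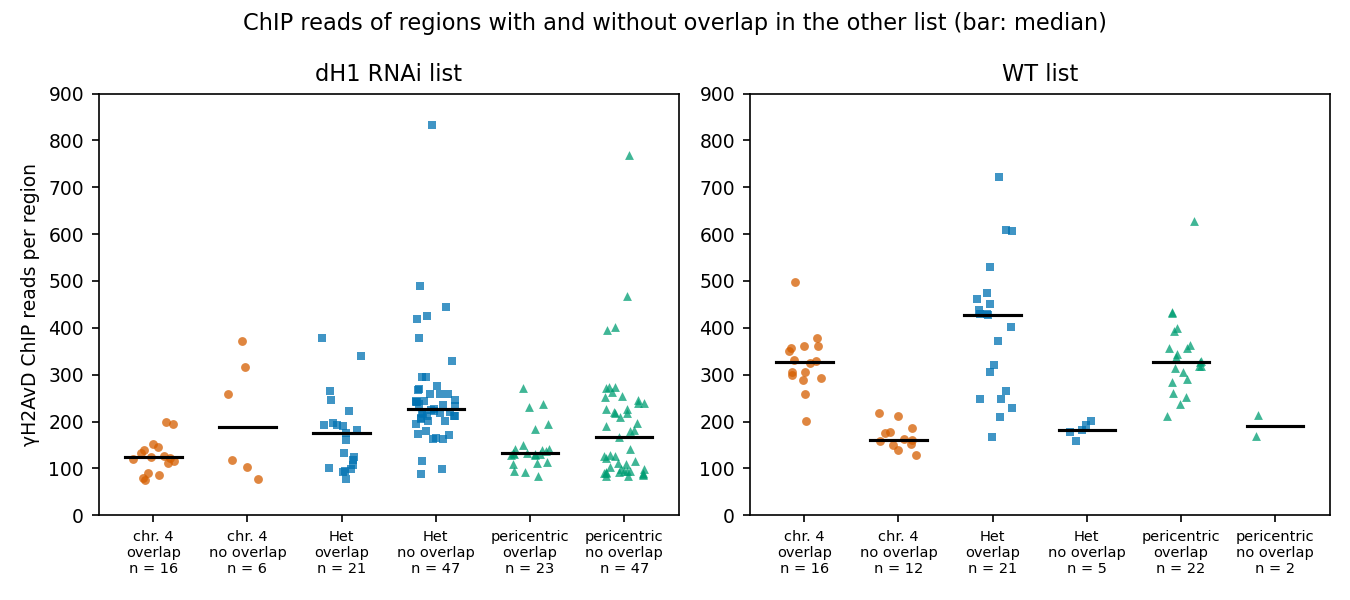
γH2AvD ChIP reads per region of assembled heterochromatin, for regions that overlap the other list and those that do not, by group, in the dH1 RNAi list and the WT list. Bars are medians. Unshared WT regions sit at 129 to 219 reads in all 3 groups, below most shared ones, while unshared dH1 RNAi regions include the highest counts of that list.

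The 59 shared WT members were each paired with the dH1 RNAi region of largest overlap. The ChIP count was lower after dH1 RNAi in all 59 pairs, as in 100% of the 215 pairs of the whole lists. Input reads were lower in 48 of the 59, against 186 of the 215. ChIP reads after dH1 RNAi, divided by those in WT cells, had a median of 0.386 on chromosome 4, 0.429 on the Het scaffolds and 0.415 in the pericentric sequence, and ranged over all members from 0.293 to 0.623. The ratio of input reads had medians of 0.765, 0.815 and 0.802 in the same order, against 0.78 over all 215 pairs. The quotient of the ChIP ratio and the input ratio had a median of 0.532 over the 59 pairs, with an interquartile range of 0.451 to 0.592, and lay below 1 in all of them, against 99.1% of all 215 pairs. Over all pairs its median was 0.562 with an interquartile range of 0.473 to 0.666. Medians by group were 0.544, 0.532 and 0.528, which differ by far less than the pairs within a group. An unknown factor of depth, common to all pairs, is part of each of these ratios, so that they order pairs and do not give a size of change. The same holds for any ratio of ChIP to input reads set beside its partner in the other list.

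**Figure D4:**
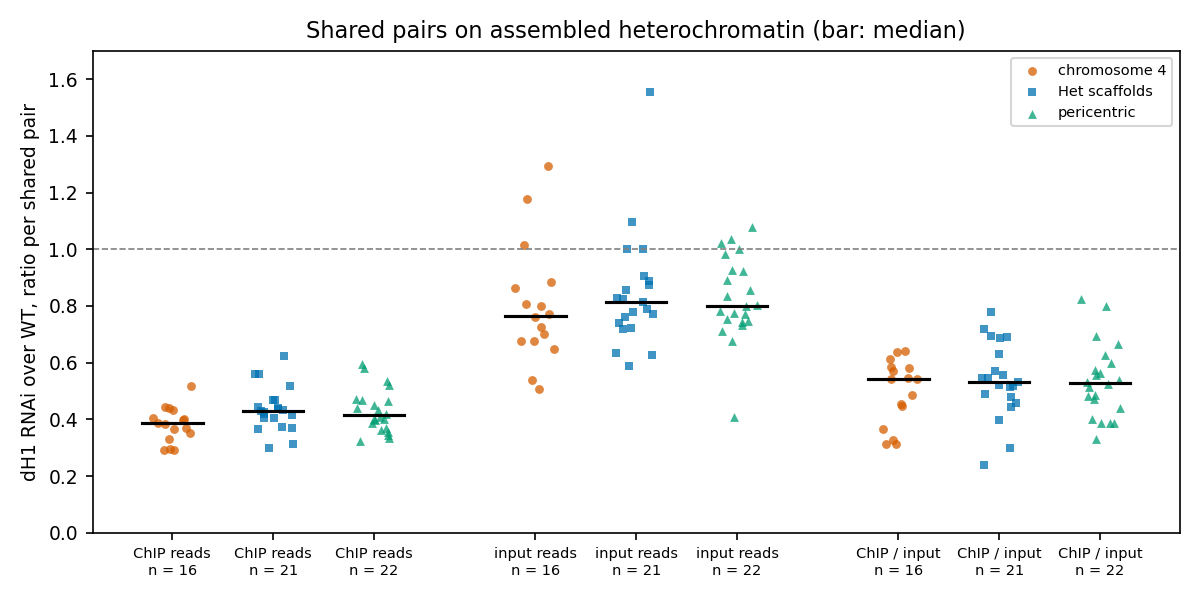
Ratios of dH1 RNAi to WT reads at the shared pairs of assembled heterochromatin, of ChIP reads, of input reads and of the ChIP ratio divided by the input ratio, by group (16, 21 and 22 pairs). Bars are medians. ChIP ratios lie between 0.293 and 0.623, and the 3 groups overlap in each panel.

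Pairs at the ends of this range lay on several sequences. The highest quotient, 0.825, was at 21500951 to 21501850 of X, with 85 ChIP reads after dH1 RNAi against 253 in WT cells, and 22 input reads against 54. At 57501 to 59300 of 3R the quotient was 0.798, with 238 ChIP reads after dH1 RNAi against 399 in WT cells. At 1396001 to 1397500 of 3LHet it was 0.780, with 339 against 606, and on chromosome 4 the highest was 0.641 at 63851 to 65000. The lowest, 0.239, was at 592851 to 594850 of 3LHet, with 119 ChIP reads after dH1 RNAi against 320 in WT cells, and 98 input reads against 63. At 197351 to 199450 of 2RHet it was 0.301, and on chromosome 4 it was 0.313 at 680801 to 681850 and 0.314 at 334051 to 336000. These 4 low pairs had an input ratio of 1.00 to 1.56, above the medians of their groups, and the high pair on X had the lowest input ratio of all members, 0.407. The high pairs on 3R and 3LHet had input ratios of 0.747 and 0.717 and ChIP ratios of 0.596 and 0.559. The input ratio is part of the quotient, so these values describe the pairs only.

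Pairs were formed by overlap, which limits how far apart their summits can lie. The summits of the 2 lists lay a median of 100 bp apart over the 59 pairs, 40 pairs were within 100 bp and 57 within 500 bp, where the caller's step was 50 bp. Over all 215 pairs of the lists the median was 50 bp, with 143 within 100 bp and 203 within 500 bp. Close summits were thus general to the lists. The largest distance, 1450 bp, was at the wide dH1 RNAi region of 22428951 to 22435800 on 2L, which had 6850 bp against 2550 bp in the WT list. On chromosome 4 the dH1 RNAi region was the narrower of the pair in 14 of 16, on the Het scaffolds in 15 of 21 and in the pericentric sequence in 10 of 22. This makes 39 of the 59 member pairs, against 106 of the 215 pairs of the whole lists. Across the 59 pairs the order of ChIP counts was alike (Spearman 0.875, n = 59), and so was the order of input counts (0.801) and, less so, of the ratios (0.661). Over all 215 pairs of the lists these values were 0.798, 0.781 and 0.794. Among the groups of members the ratios followed each other least on chromosome 4 (0.453, n = 16) and most in the pericentric sequence (0.754, n = 22). Wider regions tended to have more reads in either list, and these values describe the pairs only.

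Counts did not add up over width. The widest member, 8100 bp at 2086301 to 2094400 of 2RHet, had 489 ChIP reads over 764 input reads after dH1 RNAi. A pair of directly called regions inside it, 900 bp at 2088851 to 2089750 and 800 bp at 2093201 to 2094000, had 508 and 492 reads of the same ChIP library. A narrower region thus had more reads than the one that enclosed it, as at 8 of the 9 directly called regions of assembled heterochromatin. The deposited count therefore cannot be a plain sum of that library's reads over the whole enclosing region, and it was not divided by width. Read extension was 50 bp in the direct list and 200 bp in the other lists, per the file headers. Across members the Spearman correlation of ChIP reads with width was 0.428 in the dH1 RNAi list (n = 160) and 0.748 in the WT list (n = 78).

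The direct list, dH1 RNAi ChIP over WT ChIP, held 9 members within the caller's FDR cut-off of 0.1. Of these, 6 were on the Het scaffolds, 3 in the pericentric sequence and none on chromosome 4. The 9 made up 13.6% (6.43 to 24.3) of the 66 regions of that list within the cut-off. Of the 66, 46 lay in sequence not placed on a chromosome. Another pair of members on 2RHet had an FDR of 0.124 and were left out, where the members just inside the cut-off had 0.076. All 9 lay inside a dH1 RNAi region, against 97% overlapping one in the whole direct list, and none overlapped a WT region, against 0% of the whole list. One ChIP library, that of dH1 RNAi, served both this list and the dH1 RNAi list. All 8 enclosing dH1 RNAi regions were of high input, with 270 to 1004 input reads.

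At each of these 9 regions the dH1 RNAi ChIP had fewer reads as counted than the WT ChIP, as at 93.9% of the whole direct list. At 787351 to 792050 of 3RHet it had 877 reads, against 998 in the WT ChIP, a ratio of 0.879 (0.802 to 0.963). At 24457651 to 24463500 of 3L it had 778 against 910, a ratio of 0.855 (0.776 to 0.942), and at 24434451 to 24436050 of 3L 463 against 605. These 4700 bp and 5850 bp regions of 3RHet and 3L were the members with the lowest FDR, 0.001. At 21834601 to 21835350 of X there were 223 reads against 263, a ratio of 0.848 (0.706 to 1.02), the only interval that reached 1. The other 5 members had ratios of 0.725 to 0.735. On 3LHet they had 440 reads against 602 at 855951 to 856950, and 472 against 651 at 1280301 to 1281350. On 3RHet the region at 1518501 to 1519850 had 482 against 665. The WT ChIP thus had more reads at 8 of these 9 regions than at the median WT member (306), although none of the 9 was in the WT list. Such counts were not particular to these members. The median WT ChIP count was 665 at the 9 and 544 in the whole direct list, which was counted with another read extension than the WT list. Their ratios, 0.725 to 0.879, lay above those of the 59 shared pairs of assembled heterochromatin, 0.293 to 0.623. A gap of this kind was general to the lists. The median ratio was 0.812 over the 66 regions of the direct list and 0.434 over all 215 shared pairs. The direct regions were listed for a high ratio and counted with another read extension, so that no test of this gap was made.

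**Figure D5:**
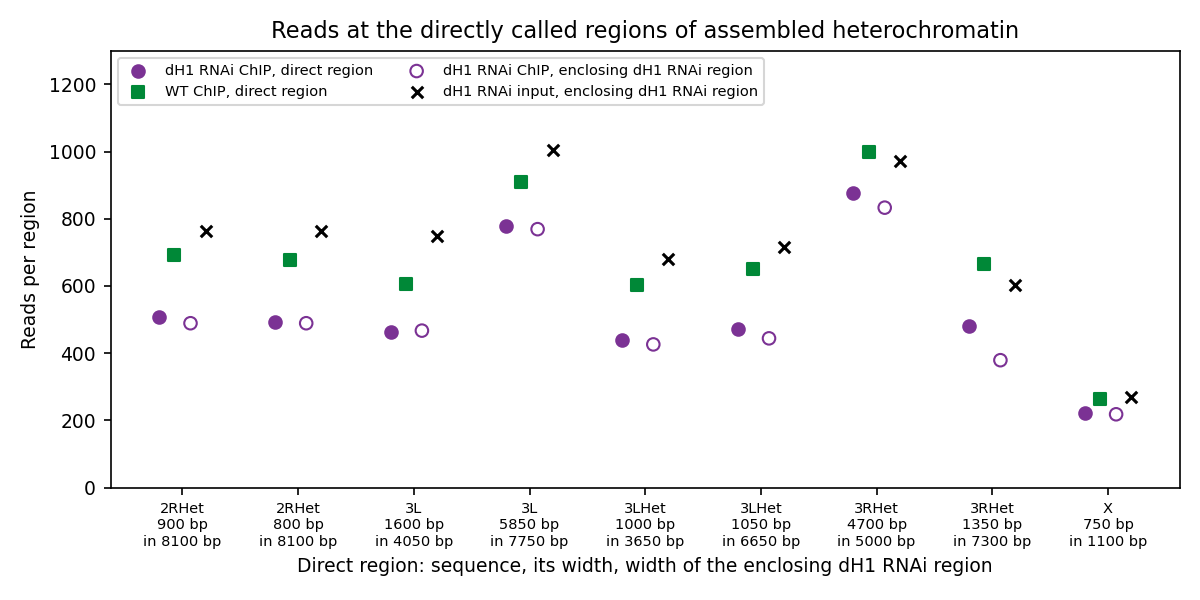
Reads at the 9 directly called regions of assembled heterochromatin, named by sequence, with their width and that of the dH1 RNAi region around them. Filled circles are dH1 RNAi ChIP reads and squares WT ChIP reads in the direct list, open circles and crosses dH1 RNAi ChIP and input reads of the enclosing region. The WT ChIP count is above the dH1 RNAi ChIP count in each of the 9.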

How the data were processed

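Regions were read from 3 lists deposited by the authors: dH1 RNAi ChIP over its input, WT ChIP over its input, and dH1 RNAi ChIP over WT ChIP. Per the file headers the caller was PeakRanger 1.16 in its CCAT mode (window 500 bp, step 50 bp, at least 4 reads in a window, window fold of 3, FDR cut-off 0.1). Bowtie 0.12.5, FastQC 0.10.1 and dm3 were used, per the submitters' processing notes. The deposited counts are whole numbers of reads given for each region in ChIP and control, and were not scaled by depth here. How the caller counted them is not stated. The deposited FDR, a p-value type column, was used to keep regions within the cut-off and to name the strongest ones.

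Computed here were members by position, counted from 1, overlap of at least 1 bp, pairs by largest overlap, ratios, Clopper-Pearson intervals of shares, exact intervals of ratios of 2 Poisson counts, and runs. Densities use dm3 sequence lengths entered from knowledge of the build, since no dm3 reference was used here. Arm sequence for comparison leaves out the first 1 Mb of 2R. matplotlib 3.10.9, scipy 1.17.1, pandas 2.3.3, numpy 2.4.6 and Python 3.11.15 were used, and the steps were tested on simulated data. With 1 library per group no count test was run. Named regions were the 3 with the highest and lowest ratio and the 3 widest of each group and list, the 3 shared pairs at each end of the quotient, the 3 unshared regions with the most ChIP reads, the direct members and the densest runs. Regions given beside these were chosen after their values were seen. Members, rules and limits were chosen with earlier results of these data known.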

Additional observations from a re-analysis of the deposited data

How the results depend on the processing

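No paired analysis was possible because there was only 1 library of each kind. Of 120 alternative values 96 stayed and 24 moved, where a number moved by over 1.5 times, and a share or median left its 95% interval. Many of those that stayed could not move. No dH1 RNAi or WT region had an FDR above 0.05, so the FDR settings left these lists as they were. Neither could the proximal length change the counts of chromosome 4 or of the Het scaffolds. The limits of 150 and 300 input reads were chosen after seeing the data. At most 200 control reads left 88 dH1 RNAi members, 23 on the Het scaffolds and 46 pericentric, with 67.0% of the 88 overlapping a WT region and median ratios of 1.97 on the Het scaffolds and 1.17 in the pericentric sequence. It left 0 direct members, 0 on the scaffolds and 0 pericentric, 0% of the 4 regions left in that list. The control of the direct list was the WT ChIP and not an input. Merging under 10 kb left 98 dH1 RNAi members, 12 on chromosome 4 and 36 pericentric. A proximal length of 0.5 Mb gave 29 pericentric regions after dH1 RNAi and 12 in WT cells, and 7.61% of the dH1 RNAi list as members. With 2 Mb these were 130, 42 and 14.1%, and 32.3% of the WT list. At an FDR of at most 0.05, 2 direct members were left, 1 on the scaffolds and 1 pericentric, and no WT or dH1 RNAi region was lost. Above 150 input reads there were 3 WT members. The medians of shared pairs stayed under stricter pairing, like widths and the input limit. The moves follow from the regions each setting removes or joins. Unknown depth limits all values between the lists.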
